A study of Mus musculus with 6 samples.

Results

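The T cell costimulatory and inhibitory receptors described here are Cd28, Icos, Cd226, Cd2, Btla, Pdcd1, Lag3, Tigit, Cd5 and Cd6, 10 genes chosen by name, and every probe set that the array annotation gives to 1 of them alone was used. There were 12 such probe sets for 9 of the 10 genes, among 45141 probe sets and 17097 named genes in all, and Tigit, an inhibitory receptor, had none and was not analysed here. Blood cells of 3 female C57BL/6 mice, 6 to 8 weeks old and named A, C and D in the labels, were gated as effector memory T cells, by CD3, high CD44 and a further surface marker, and split by CD11c into a CD11c+ and a CD11c- fraction, so that each mouse gave 1 sample to each fraction. The labels of all 6 samples describe treatment with 3 mg of Depo-Provera, a progestin that synchronizes the cycle, 5 days before blood was taken (6 in the methods). Each sample held 300 cells, and its amplified RNA was hybridised to 1 single-colour Affymetrix array. The values are log2 RMA signals, so that a difference of 1 is a doubling, and a level is not comparable between probe sets. CD11c is an integrin chain used to mark dendritic cells that some T cells also carry, and the comparison asks how activated T cells with CD11c differ from those without it.

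A T cell that meets antigen reads a second set of signals through these receptors. CD28 binds CD80 and CD86 on the presenting cell and amplifies the antigen receptor signal, ICOS is a relative of CD28 that appears after activation, and CD2 and CD226 add adhesion and activating signals. BTLA, PD-1 (encoded by Pdcd1), LAG-3 and TIGIT dampen the response, the first through the ligand HVEM (encoded by Tnfrsf14), the next through PD-L1 and PD-L2, and LAG-3 through MHC class II. CD5 and CD6 are scavenger-family receptors of the T cell surface. CD5 mainly restrains antigen receptor signalling, and CD6 binds ALCAM.

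The fractions were first checked against the genes of the sort. Itgax, which encodes CD11c, rose and was at 8.93, 9.06 and 8.93 in the CD11c+ cells of mice A, C and D, against 5.80, 3.88 and 4.12 in their CD11c- cells (at least 9.43-fold higher, adjusted p = 0.0387 from limma). Cd44 differed by -0.01 (adjusted p = 0.989). The 4 CD3 chain genes were far above background in both fractions, with an array mean of 10.15, 10.15 and 9.83 in CD11c+ cells and 10.72, 10.87 and 10.75 in CD11c- cells, a mean log2 difference of -0.74. A signal counted as above background where it exceeded 5.71, which 95% of 37 genes known from other tissues did not reach. Where 1 fraction was not above it, the change is given as a bound ("at least"), with each array of that fraction set no lower than this level. Such a bound concerns the background only and takes no account of the spread among mice. Among basophil and mast cell genes 9 of 10 were higher in CD11c+ cells, their summed linear signal was 5693 to 8349 in CD11c+ cells and 165 to 175 in CD11c- cells, and no member of that list was above background in CD11c- cells. Of 15 monocyte and macrophage genes 9 were higher, with sums of 5960 to 7411 in CD11c+ cells and 1740 to 2158 in CD11c- cells. Only 4 of the 15 were above background in CD11c- cells. Ms4a6c gave the largest part of the CD11c- sum and went the other way (log2 difference -1.02, adjusted p = 0.149 from limma). Of 10 dendritic cell genes 4 rose and 0 fell, of 10 NK cell genes 2 rose and 1 fell, and of 11 B cell genes 2 rose and 0 fell. The part of these cell types in the receptor values was not tested. In such samples fewer cells of a type and less RNA per cell cannot be told apart.

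The receptors split by level. Cd28, Icos, Cd2, Btla, Cd5 and Cd6 were above background in both fractions, and all 6 were lower in the CD11c+ cells of 3 of 3 mice, as were 26.5% of all genes. Cd226, Pdcd1 and Lag3 were not above background in either fraction. Of the 9 genes measured, 2 fell at an adjusted p under 0.05 (limma, mouse as a block, Benjamini-Hochberg over all probe sets), 0 rose and 7 did not pass. Over all genes 0.222% were lower and 1.4% higher at the same adjusted p, and 0.492% of the genes above background were lower. Of the 12 probe sets 2 fell, beside 0.168% of all probe sets. At an unadjusted p under 0.05, 6 of the 9 genes were lower and 0 higher, beside 7.44% and 7.38% of all genes. Where a gene had several probe sets, the brightest stands for it. In 6 of the 9 genes every CD11c+ array was below every CD11c- array, which was so for 12.5% of all genes and 13.9% of those above background, and in the other 3 the fractions overlapped. All 4 CD3 chain genes were separated in the same direction, so this trait is not particular to the receptors. The median log2 fold change of the 9 genes was -1.29, beside -0.09 for all 17097 genes.

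**Figure D1:**
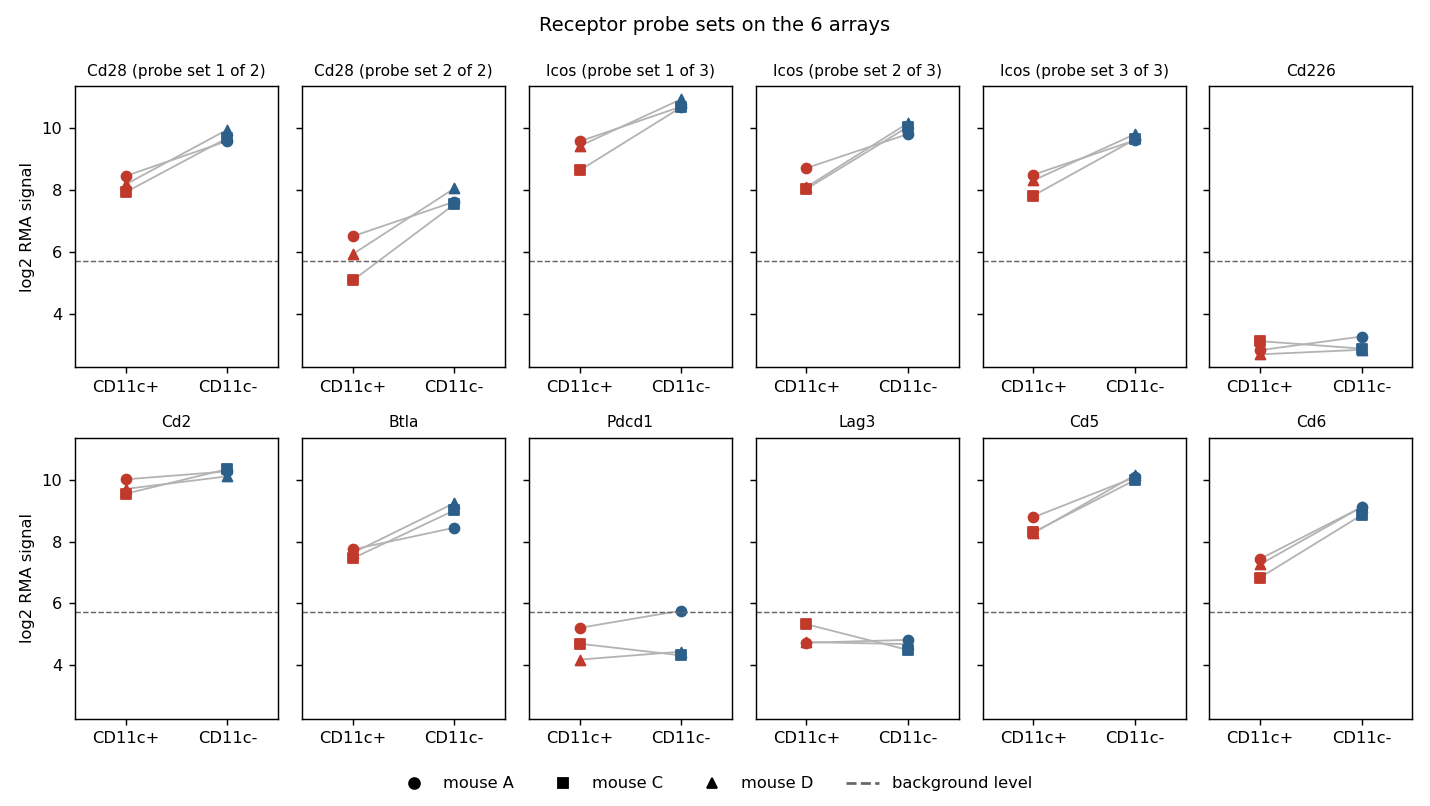
Log2 RMA signal (vertical axis) of the 12 probe sets of the receptors, CD11c+ left of CD11c- in each panel, with 1 marker shape per mouse, grey lines joining the fractions of a mouse and dashes at 5.71, the level taken as background. In the 9 probe sets of Cd28, Icos, Cd2, Btla, Cd5 and Cd6 every line climbs to the CD11c- side, while Cd226, Pdcd1 and Lag3 lie at or below the dashed line except for 1 CD11c- array of Pdcd1.

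Cd6 had the lowest fold change of the 9 genes. Its signal was 7.44, 6.84 and 7.26 in the CD11c+ cells of mice A, C and D and 9.11, 8.86 and 9.11 in their CD11c- cells. The highest CD11c+ value lay more than 1 log2 unit under the lowest CD11c- value. Cd6 thus averaged 7.18 ± 0.31 with CD11c and 9.03 ± 0.15 without it (mean ± SD, n = 3), and fell by 1.85 on the log2 scale (standard error 0.14, 95% interval -2.22 to -1.47, adjusted p = 0.0209 from limma), and a signal 3.60-fold lower in CD11c+ cells. It ranked 39th from the lowest of all genes. With 1 mouse left out Cd6 did not pass, at an adjusted p of 0.141 without mouse A, 0.104 without mouse C and 0.0546 without mouse D, with log2 fold changes of -1.94, -1.76 and -1.85. Of all genes 0 passed as lower without mouse A, 0 without mouse C and 0.111% without mouse D. The loss of the call is therefore not particular to Cd6.

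Cd5 was the other receptor that fell. Its signal was 8.78, 8.30 and 8.27 in CD11c+ cells and 10.08, 9.99 and 10.14 in CD11c- cells, and the CD11c- values lay within a narrow band in all 3 mice. The CD11c+ mean was 8.45 ± 0.29 and the CD11c- mean 10.07 ± 0.079 (mean ± SD, n = 3), so that Cd5 fell by 1.62 on the log2 scale (standard error 0.17, 95% interval -2.07 to -1.17, adjusted p = 0.0416 from limma). Leaving out mouse A (0.154), mouse C (0.158) or mouse D (0.0900) ended the call of Cd5, as did the change to another scale by cyclic loess (0.0590) or by centring each array on its median (0.0732), all of these being adjusted p-values from limma, with log2 fold changes from -1.78 to -1.49. The shares of all genes given for Cd6 with a mouse left out hold here too.

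Cd5 and Cd6 are consecutive protein-coding genes in the RefSeq annotation. The genes on either side of the pair did not share their direction. Vps37c, on the side of Cd5, was at 8.27 ± 0.27 in CD11c+ and 7.72 ± 0.12 in CD11c- cells, or 0.56 higher on the log2 scale (adjusted p = 0.309). Slc15a3, on the side of Cd6, was at 5.93 ± 0.16 in CD11c+ and 4.51 ± 0.24 in CD11c- cells, where it was not above background, and was at least 1.17-fold higher in CD11c+ cells (adjusted p = 0.0339).

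RefSeq promoter sequences were found for 4 of the 10 genes. They are shown for Cd5, which fell, for Btla, which was lower without passing, and for Pdcd1, which was not above background, as the 250 bases before the gene start that the RefSeq table gives, on the gene's own strand in build GRCm38.p6. The Cd5 window is chr19:10738975-10739224 on the minus strand, the Btla window chr16:45224087-45224336 on the plus strand and the Pdcd1 window chr1:94052554-94052803 on the minus strand. Capitals mark the letters AGGAAGT, a core bound by ETS factors, and CAGGTG, an E-box, on either strand. Only for Pdcd1 is this start the outer end of the gene in the RefSeq annotation, which reaches 52 bases further upstream for Cd5 and 632 for Btla. The motifs do not overlap here, and they were chosen after the sequences had been read.
Cd5: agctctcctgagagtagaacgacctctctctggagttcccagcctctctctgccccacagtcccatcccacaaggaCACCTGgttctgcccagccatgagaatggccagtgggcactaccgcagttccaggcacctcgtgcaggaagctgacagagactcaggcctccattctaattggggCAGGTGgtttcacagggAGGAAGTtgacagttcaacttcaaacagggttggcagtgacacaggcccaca
Btla: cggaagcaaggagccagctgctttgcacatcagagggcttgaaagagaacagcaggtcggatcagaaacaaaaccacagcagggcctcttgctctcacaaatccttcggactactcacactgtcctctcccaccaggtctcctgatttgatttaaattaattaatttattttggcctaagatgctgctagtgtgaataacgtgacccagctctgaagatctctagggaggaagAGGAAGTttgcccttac
Pdcd1: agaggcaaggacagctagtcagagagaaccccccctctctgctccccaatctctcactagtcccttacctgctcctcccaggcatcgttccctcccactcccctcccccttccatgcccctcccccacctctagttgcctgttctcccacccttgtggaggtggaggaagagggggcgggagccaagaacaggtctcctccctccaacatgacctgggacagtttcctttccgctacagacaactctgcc
The ETS letters began 52 bases before the start in Cd5 and 17 bases before it in Btla, and the E-box letters occurred at 2 places in Cd5. The Pdcd1 window and that of Tigit held neither. Of 32851 such windows 7.69% held the ETS letters and 17.2% the E-box letters, so a match describes the sequence only.

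Cd28 and Icos, the costimulatory receptors of the CD28 family, were lower in CD11c+ cells by about the same amount as Cd5 without passing the test. The brighter probe set of Cd28 was at 8.45, 7.93 and 8.18 in CD11c+ cells and at 9.59, 9.68 and 9.95 in CD11c- cells, so that the fractions lay more than 1 log2 unit apart. Its means were 8.19 ± 0.26 in CD11c+ and 9.74 ± 0.19 in CD11c- cells, a log2 fold change of -1.55 (standard error 0.19, 95% interval -2.05 to -1.05, adjusted p = 0.0555 from limma). The dimmer probe set of Cd28 was at 6.50, 5.08 and 5.93 in CD11c+ cells and at 7.62, 7.53 and 8.05 in CD11c- cells, a log2 difference of -1.90 (adjusted p = 0.0909). Here the CD11c+ mean of 5.84 was barely above the background level and the array of mouse C was below it. Cd28 passed without the mouse block (adjusted p = 0.0125), with the mouse as a random block (0.00914), with a trended variance (0.0188), with the dim probe sets left out (0.0365) and with the arrays centred on the CD3 chains (0.0286). With that centring its unadjusted p from limma rose from 0.000736 to 0.00611, while 49.6% of all probe sets passed as higher. The pass on that scale therefore does not reflect stronger evidence for Cd28.

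All 3 probe sets of Icos gave the same direction. The brightest was at 9.57, 8.63 and 9.42 in CD11c+ cells and at 10.70, 10.67 and 10.93 in CD11c- cells, and the CD11c+ array of mouse C was the lowest. Its means were 9.21 ± 0.50 in CD11c+ and 10.77 ± 0.14 in CD11c- cells, a log2 fold change of -1.56 (standard error 0.22, 95% interval -2.14 to -0.98, adjusted p = 0.0736). The other 2 probe sets had log2 fold changes of -1.73 (adjusted p = 0.0753) and -1.47 (adjusted p = 0.0588). Icos passed under the same 5 settings as Cd28, at adjusted p-values from limma of 0.0176 to 0.0458, and also when its probe sets were averaged (0.0497). With CD3 centring its unadjusted p from limma likewise rose, from 0.00133 to 0.00755. Between Cd28 and Icos on the chromosome lies Ctla4, which encodes the inhibitory receptor that competes with CD28 for its ligands. Ctla4 fell to 6.19, 5.16 and 5.55 in CD11c+ cells, against 8.70, 8.58 and 8.19 in CD11c- cells (at least 6.16-fold lower, adjusted p = 0.0226). Its CD11c+ mean was not above background. Raph1 and Pard3b, which flank these 3 genes, were not above background in either fraction.

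Btla, the inhibitory receptor for HVEM, was at 7.74, 7.46 and 7.63 in CD11c+ cells and at 8.45, 9.01 and 9.24 in CD11c- cells. The fractions did not overlap, and the CD11c- array of mouse A was nearest to the CD11c+ arrays. The means were 7.61 ± 0.14 in CD11c+ and 8.90 ± 0.41 in CD11c- cells, with a log2 fold change of -1.29 (standard error 0.23, 95% interval -1.91 to -0.67, adjusted p = 0.115 from limma). Btla passed only with the mouse as a random block (adjusted p = 0.0388) among the 11 alternatives run.

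Cd2, which binds CD48 in mice, differed least of the 6 receptors above background. It was at 10.01, 9.55 and 9.70 in CD11c+ cells and at 10.27, 10.34 and 10.11 in CD11c- cells, so the fractions came close to touching. Its means were 9.75 ± 0.24 in CD11c+ and 10.24 ± 0.12 in CD11c- cells, a log2 fold change of -0.49 (standard error 0.16, 95% interval -0.93 to -0.05, adjusted p = 0.325). In 3 of 3 mice Cd2 had the smallest difference of the 6 genes.

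The 3 dim receptors gave no level that could be compared. Pdcd1 was at 5.21, 4.70 and 4.18 in CD11c+ cells and at 5.76, 4.32 and 4.44 in CD11c- cells, so that the mice differed more than the fractions did (log2 fold change -0.15, 95% interval -0.74 to 0.45, adjusted p = 0.819). Lag3 was at 4.73, 5.32 and 4.75 in CD11c+ cells and at 4.82, 4.49 and 4.68 in CD11c- cells (log2 fold change 0.27, 95% interval -0.34 to 0.88, adjusted p = 0.693). Cd226, at 2.82, 3.11 and 2.69 in CD11c+ cells and 3.26, 2.87 and 2.83 in CD11c- cells, had a mean at percentile 10.1 of all probe sets (log2 fold change -0.12, 95% interval -0.60 to 0.37, adjusted p = 0.824). A probe set at this level shows neither that the transcript was absent nor that the fractions had equal amounts. Lag3 lies next to Cd4 in the annotation, and Cd4 was at 8.85, 6.65 and 7.90 in CD11c+ cells against 10.31, 10.09 and 10.51 in CD11c- cells (log2 fold change -2.50, adjusted p = 0.0973).

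**Figure D2:**
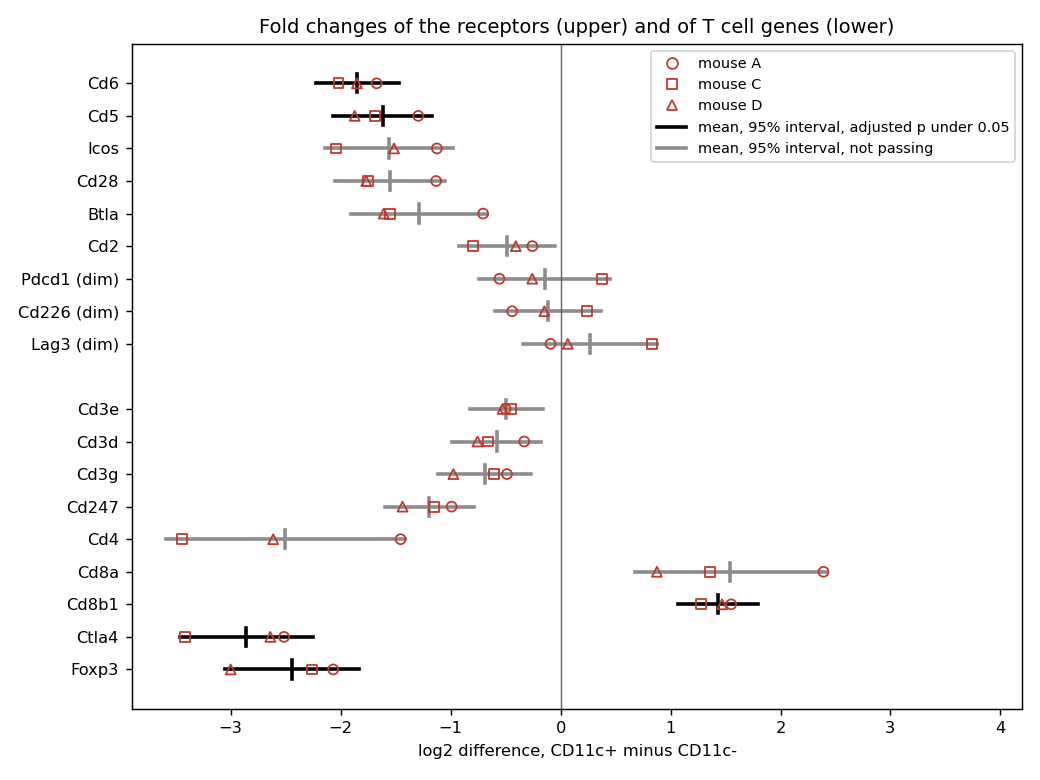
Log2 difference, CD11c+ minus CD11c- (horizontal axis), of the 9 receptors (upper rows, "dim" for those not above background in either fraction) and of 9 other T cell genes (lower rows). Open symbols are the mice, upright ticks the means and bars the 95% intervals, black at an adjusted p under 0.05. Cd6 and Cd5 have black bars, and the bars of Icos, Cd28, Btla and Cd2 also lie below 0 but are grey.

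The mice behaved alike across the receptors. In all 9 probe sets above background the smallest difference was that of mouse A, at -1.13 for Cd28, -1.12 for Icos and -1.29 for Cd5, while mouse C had -1.75, -2.04 and -1.69 for these genes and mouse D had -1.77, -1.51 and -1.87. The CD11c+ array of mouse C had the lowest CD11c+ signal in 8 of the 9. In 8 of the 9 the spread among mice was also wider in CD11c+ than in CD11c- cells, Btla being the exception. These 9 probe sets belong to 6 genes, and the shares of all genes with the same patterns were not counted. The mean of the CD3 chains also differed least in mouse A, at -0.58, against -0.72 in mouse C and -0.92 in mouse D. Across the 6 arrays the 6 genes correlated with each other at Pearson r from 0.80 to 0.99 over 15 pairs, values that share the arrays and the difference between fractions. The genes whose pattern over the 6 arrays was most like that of Cd6 were Ramp3 (r = 0.999), Uba1y (r = 0.998) and Tnfrsf4 (r = 0.993), and those most like Cd5 were Rps20 (r = 0.997), Amn (r = 0.995) and Prkcq (r = 0.993). Uba1y and Amn were not above background in either fraction, and Rps20 differed by a log2 value of only -0.19.

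The receptors were also set against the CD3 chains, by subtracting the mean of Cd3d, Cd3e, Cd3g and Cd247 on each array. On that scale Cd6 was lower by 1.10, 1.30 and 0.93 in mice A, C and D, with a log2 difference of -1.11 (95% interval -1.65 to -0.57, adjusted p = 0.0066), and Cd5 had -0.88 (95% interval -1.41 to -0.34, adjusted p = 0.0205). Their unadjusted p from limma rose, from 0.000102 to 0.000535 for Cd6 and from 0.000393 to 0.00323 for Cd5. The smaller adjusted p-values therefore do not reflect stronger evidence for these 2 genes. Cd28 had -0.81 (adjusted p = 0.0286), Icos -0.82 (adjusted p = 0.0315) and Btla -0.55 (adjusted p = 0.0770), each lower in 3 of 3 mice. Cd2 turned to 0.25 (95% interval -0.30 to 0.80, adjusted p = 0.374) and was lower in 1 of 3 mice. The chains themselves had log2 differences of -0.49 (Cd3e), -0.58 (Cd3d), -0.69 (Cd3g) and -1.19 (Cd247), and none was used alone as a reference. With the mean of the chains as reference, 4 of the receptors passed as lower in the limma test. Of all genes 0.573% passed as lower and 50.1% as higher on this scale. For Cd2 no difference from the mean of the CD3 chains was detectable. This scaling moves the median of all genes to 0.65, and 22412 probe sets passed as higher under it, Lag3 among them (log2 difference 1.01, adjusted p = 0.0165) although its signal was not above background. The same 3 CD3 offsets enter every probe set, so these tests share their error.

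Of the 3 coreceptor genes, each read by its brightest probe set, 1 passed in limma. Cd8b1 rose in CD11c+ cells by 1.43 on the log2 scale (adjusted p = 0.0333) and Cd8a had 1.54 (adjusted p = 0.151), whereas Cd4 had -2.50 (adjusted p = 0.0973). The paper lists Cd8a as up-regulated, with a larger change and an adjusted p under 0.05. Any other probe set of Cd8a was not examined here. Of 8 genes of regulatory T cells, cells known for high ICOS and CTLA-4, 2 fell (Ctla4 and Foxp3), 0 rose and 6 did not pass. The summed linear signal of the 8 was 766 to 917 in CD11c+ cells and 1835 to 2462 in CD11c- cells. Foxp3, their defining transcription factor, was at 6.16, 6.01 and 5.12 in CD11c+ cells and 8.22, 8.27 and 8.12 in CD11c- cells. Whether the mix of CD4, CD8 and regulatory T cells set the receptor values was not tested.

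The rest of the pathway was described through lists. Of 13 measured ligands 3 rose, 0 fell and 10 did not pass, with a median log2 fold change of 0.67. The median was 0.42 and 0 passed without mouse A, and the median was 0.39 without mouse D, 0.42 with averaged probe sets and 1.40 on the scale of the CD3 chains. The 3 were the MHC class II chains H2-Aa, H2-Ab1 and H2-Eb1, ligands of LAG-3. The brightest probe set of H2-Aa had a log2 difference of 4.93 (adjusted p = 0.00805 from limma), and the paper lists a larger change for this gene. H2-Ab1 was at least 74.3-fold higher (adjusted p = 0.00654) and H2-Eb1 at least 47.1-fold higher (adjusted p = 0.0121), since neither was above background in CD11c- cells. The CD28 ligands Cd80 (0.68, adjusted p = 0.477) and Cd86 (0.67, adjusted p = 0.388), the ICOS ligand Icosl (0.76, adjusted p = 0.469) and HVEM (Tnfrsf14, -0.24, adjusted p = 0.576) did not pass. Neither did Cd274, which encodes PD-L1 (0.05, adjusted p = 0.952), Pvr (-0.16, adjusted p = 0.747) or Nectin2 (0.32, adjusted p = 0.534), and Nectin2 and Pdcd1lg2 were not above background in either fraction. Alcam, the ligand of CD6, was at 6.33, 6.93 and 7.26 in CD11c+ cells and 5.46, 4.57 and 4.03 in CD11c- cells, without overlap (at least 2.20-fold higher, adjusted p = 0.165), and its CD11c- mean was not above background.

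Among 18 other receptors of the same kinds, 1 rose, 3 fell and 14 did not pass, with a median of 0.01 that turned negative under 4 of the 11 alternatives. The count that fell was 1 after cyclic loess or median centring and without mouse D, and 0 without mouse A or mouse C, and the count that rose was 0 without mouse A or mouse C. The TNF receptor family members Tnfrsf4, which encodes OX40 (-1.72, adjusted p = 0.0420), and Tnfrsf25 (-2.10, adjusted p = 0.0498) fell with Ctla4. Cd244a, which encodes 2B4 and is also carried by NK and myeloid cells, was not above background in CD11c- cells and was at least 4.35-fold higher in CD11c+ cells (adjusted p = 0.0242). In 8 of the 18 every CD11c+ array was below every CD11c- array, and in 4 every one was above, beside 12.5% and 7.48% of all genes.

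Of 31 signalling proteins downstream of the receptors 0 passed in either direction in limma with the mouse as a block, while 3 were higher and 10 lower at an unadjusted p under 0.05, beside 7.38% and 7.44% of all genes. With the mouse as a random block 1 passed as higher and 2 as lower, and on the scale of the CD3 chains 8 passed as higher, as did 50.1% of all genes. The median was -0.31, and it was 0.43 on the scale of the CD3 chains. Prkcq, the kinase that couples CD28 to NF-kB, had -0.75 (adjusted p = 0.126), and Grap2, an adaptor that binds CD28, had -0.97 (adjusted p = 0.0794). Pik3r1, a PI3-kinase subunit that binds CD28 and ICOS, had -0.52 (adjusted p = 0.228), and Grb2, another adaptor of CD28, had -0.01 (adjusted p = 0.988). The phosphatases used by inhibitory receptors differed in sign, with 0.90 for Ptpn6 (adjusted p = 0.0955) and -0.33 for Ptpn11 (adjusted p = 0.409). The CD2 partners Cd2ap (0.20, adjusted p = 0.709), Cd2bp2 (-0.48, adjusted p = 0.357) and Pstpip1 (-0.11, adjusted p = 0.819) did not pass either. Of 15 transcription factors tied to these receptors 1 rose, Eomes (at least 3.00-fold higher, adjusted p = 0.0225, not above background in CD11c- cells), and 0 fell, beside 1.4% and 0.222% of all genes. The count that fell was 2 without the block, with it random or with a trended variance. It was 1 on the scale of the CD3 chains, without dim probe sets, with averaged probe sets and without mouse D. The count that rose was 2 with the random block, the trend or averaged probe sets, and 7 on the CD3 scale. No transcription factor passed without mouse A or mouse C.

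**Figure D3:**
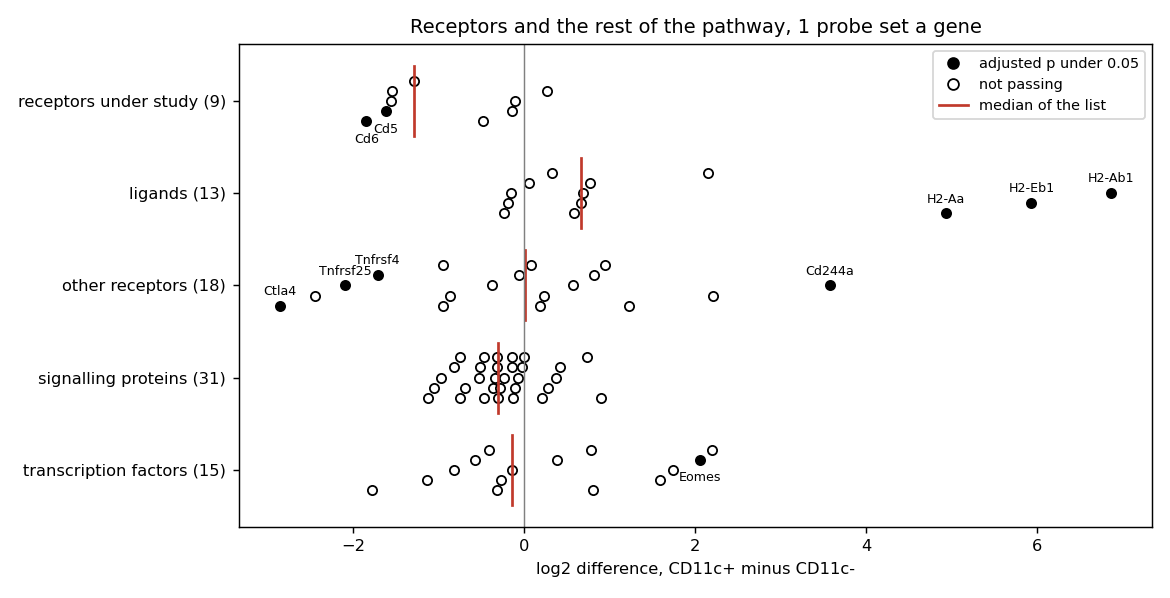
Log2 difference, CD11c+ minus CD11c- (horizontal axis), of the 9 receptors and of the ligands, other receptors, signalling proteins and transcription factors of the pathway (vertical axis, number of genes in brackets), with filled circles at an adjusted p under 0.05, red lines at the median of each list, and measured differences also for genes that the text gives as bounds. The receptors have a median of -1.29 and the signalling proteins one of -0.31, while the 3 filled ligands are MHC class II chains.

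The calls rested on the test setting more than on the direction. Member genes called lower numbered 2 with the mouse as a block, 4 without the block and 0 without any 1 of the 3 mice. Without mouse A no probe set on the array passed (0 higher and 0 lower, limma, with 2796 higher and 2767 lower at an unadjusted p under 0.05). Without mouse C 0 of all genes passed as lower, and without mouse D 0.111%. The log2 fold changes of Cd6, Cd5, Cd28, Icos and Btla were negative under all 11 alternatives. Several of these could not turn the sign. A change of block or variance model, or leaving out dim probe sets, keeps the same estimate. Leaving out 1 mouse averages differences that were negative in 3 of 3 mice.

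**Figure D4:**
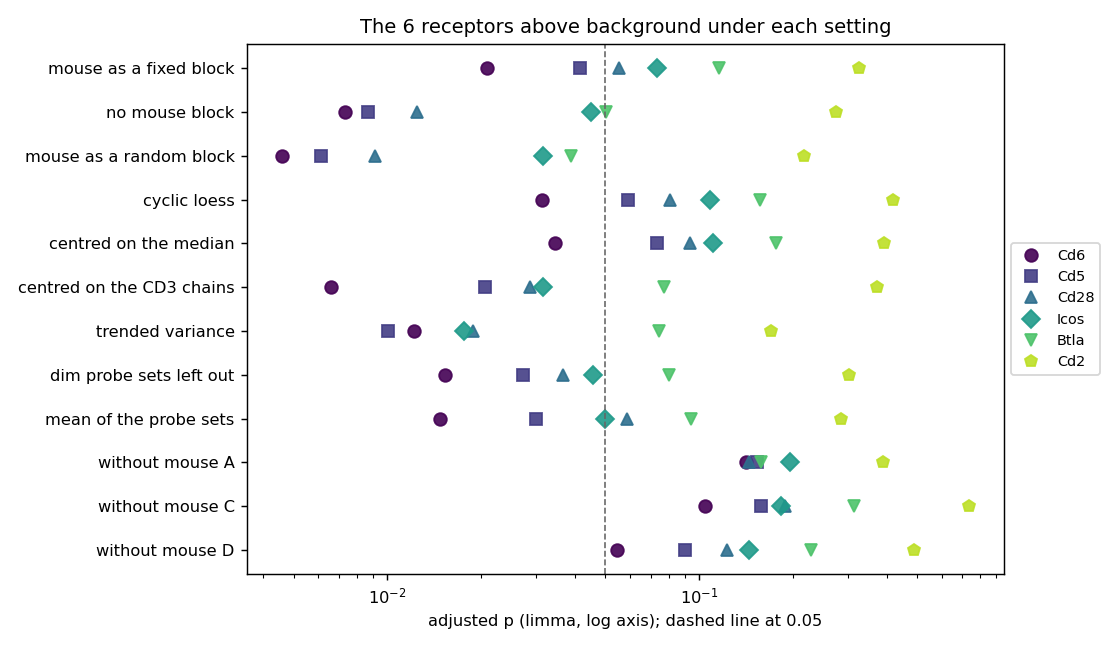
Adjusted p from limma (horizontal axis, log scale) of the 6 receptors above background under the fit with the mouse as a fixed block and each of 11 alternatives (vertical axis), with a dashed line at 0.05. Cd6 lies left of the line except where a mouse was left out, and Cd2 lies right of it throughout.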

How the data were processed

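The authors deposited log2 values of 6 single-colour arrays, summarised and normalized together by RMA, which makes the arrays alike in distribution (array medians 4.40 to 4.54), so a change in total RNA is not visible. A genome build is not given for the array values, and no detection calls were used. From these values limma 3.58.1 in R 4.3.3 was fitted to all 45141 probe sets with the mouse as a fixed block and fraction as the effect (2 residual and 2.43 prior degrees of freedom), with Benjamini-Hochberg adjustment over all probe sets and a threshold of 0.05. The mice pair the samples by their labels. Deviations from the fraction means correlated at 0.122, 0.0758 and 0.109 within mice A, C and D, and at -0.086 to -0.0217 between mice. Probe sets were named through the platform annotation: 28898 had 1 gene, 551 had several and 15692 had none. Each gene is represented by its brightest probe set over the 6 arrays. Background is the 95th percentile of 37 measured of 44 genes of other tissues, and 38.0% of genes were above it.

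The members and lists were chosen with earlier results of these data known. Named were all members, genes of the sort, coreceptors, up to 5 genes of each list past the threshold, genes that bind or signal directly for a member, and the 3 genes most like each member that passed. Tested on simulated data for this comparison over 45141 probe sets, the fit recovered 0% of changes of 1 log2 unit, 38% of 2, 70% of 4 and 86% of 6, with 1 false call among 98. The changed probe sets were drawn from all signal levels, with their own residual spread and no mouse effect. These rates therefore do not describe bright probe sets alone. A sign-flip test of 3 pairs cannot go below a two-sided exact p of 0.25, so none was used. Alternatives were the block left out or random, cyclic loess, centring on the array median or the CD3 chains, a trended variance, dim probe sets left out, averaged probe sets per gene, and each mouse left out. One gene of the sort is not reported here.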

Additional observations from a re-analysis of the deposited data

How the results depend on the processing

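The counts changed with the way the mouse entered the fit, while the log2 fold changes of the receptors stayed the same. Member genes called lower were 2 with the mouse as a block, 4 without the replicate block and 5 with it random (probe sets 2, 6 and 8). All probe sets called were 432 higher and 76 lower with the block, 684 and 211 without it, and 812 and 316 with it random. Member genes called lower were 4 with a trended variance, with dim probe sets left out and with centring on the CD3 chains (probe sets 6, 6 and 7), and 1 after cyclic loess or median centring (probe sets 1 and 1). All probe sets called were 684 higher and 207 lower with the trend, 140 lower without dim probe sets (fewer were tested), 41 lower after loess, and 22412 higher and 232 lower with CD3 centring, which shifts all values. CD3 centring also gave 1 member gene and 1 member probe set called higher (Lag3) and a member median of -0.55. With 1 mouse left out, member genes and probe sets called lower ranged from 0 to 0, all probe sets higher from 0 to 348 and lower from 0 to 44. The sign turned with CD3 centring for Cd226 (0.62), Cd2 (0.25) and Pdcd1 (0.59). With 1 mouse left out it also turned for the dim receptors, Cd226 ranging from -0.29 to 0.047 and Pdcd1 from -0.41 to 0.060, both positive without mouse A, and Lag3 from -0.013 without mouse C to 0.45. Where no value shows why, the cause was not tested. With 3 mice and 300 cells a sample, 0% of simulated differences of 1 log2 unit and 38% of those of 2 were recovered. Those probe sets were of all signal levels, so the rates are not specific to the bright receptors. Sizes between were not simulated, and signals near background limit the dim receptors.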
